A study of Mus musculus with 12 samples.

Results

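The genes of the LIF, gp130 and STAT3 route were followed through the exit of mouse embryonic stem cells from the naive state. They are 10 genes of the 51467 in the deposited table, chosen by name for their place in the route. No measured value enters the choice rule, but the names were picked with earlier results of these data known. They comprise the receptor chains Lifr and Il6st, the kinases Jak1 and Jak2, the transcription factor Stat3, the feedback inhibitors Socs2 and Socs3, and the STAT3 targets Pim1, Pim3 and Gbx2. All 10 passed the filter on low counts, and each reached its count minimum in at least some libraries of both cell types.

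Leukaemia inhibitory factor (LIF) binds the LIF receptor, which pairs with gp130, the shared signalling chain of the interleukin 6 cytokine family. Janus kinases bound to these chains then phosphorylate STAT3, which enters the nucleus and switches on its targets, among them inhibitors that shut the receptor complex down. In mouse embryonic stem cells (ESCs) this signal is known for sustaining self-renewal.

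ESCs of the V6.5 line carrying miR290-mCherry and miR302-GFP reporters were grown in 15% serum with LIF and 2i, the MEK inhibitor PD0325901 and the GSK3 inhibitor CHIR99021. Epiblast-like cells (EpiLCs) came from the same reporter line and were collected 56 h after LIF and 2i had been taken away together, so the effect of losing LIF and that of losing 2i cannot be told apart. All cells received 500 µM 4-thiouridine (4sU), a uridine analogue that marks newly made RNA, for 30 min. The RNA was split into a captured 4sU fraction (nascent RNA) and a fraction depleted of ribosomal RNA (total RNA), which gave 4 groups of 3 libraries.

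The 4sU libraries held 3097693 to 5385644 reads on genes and the total libraries 9300845 to 21975684. At an equal CPM, counting error is therefore greater for nascent RNA. The naive ESC markers Zfp42, Esrrb, Klf2, Nanog and Tbx3 were called lower and the EpiLC markers Otx2, Dnmt3b and Pou3f1 higher in EpiLC total RNA. Prdm14 and Nr0b1 were also lower and Fgf5 higher, but these 3 passed the filter on low counts through 1 cell type alone and had to differ. Both ESC replicate 3 libraries stood apart on the third principal component, at -41.5 for 4sU and -36.2 for total RNA against 9.50 to 28.3 for the other 4 ESC libraries. Results that rest on these libraries are given with and without them. The study calls its replicates biological, but neither it nor the labels say that they came from separate cultures, so p-values measure only the spread between these libraries, which may in part be technical. In bulk RNA, fewer cells of a type and less RNA per cell cannot be told apart.

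The first comparison asked which of the genes changed in total RNA. A gene was called when its limma-voom adjusted p was under 0.05 and its absolute log2 change, EpiLC minus ESC, was above 1. In total RNA 5 of the 10 genes were called lower (Lifr, Il6st, Stat3, Socs3 and Gbx2) and 0 were called higher, where 11.2% of the 14731 genes tested were called lower and 16.3% higher. On adjusted p alone 6 were lower and 3 higher, against 32.1% and 31.4% of all genes. Either way, 5 of 10 were called against 27.6% of all genes, and 9 of 10 passed on adjusted p alone against 63.5%. The median log2 change was -0.83 over the 10 genes and 0.02 over all genes tested.

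**Figure D1:**
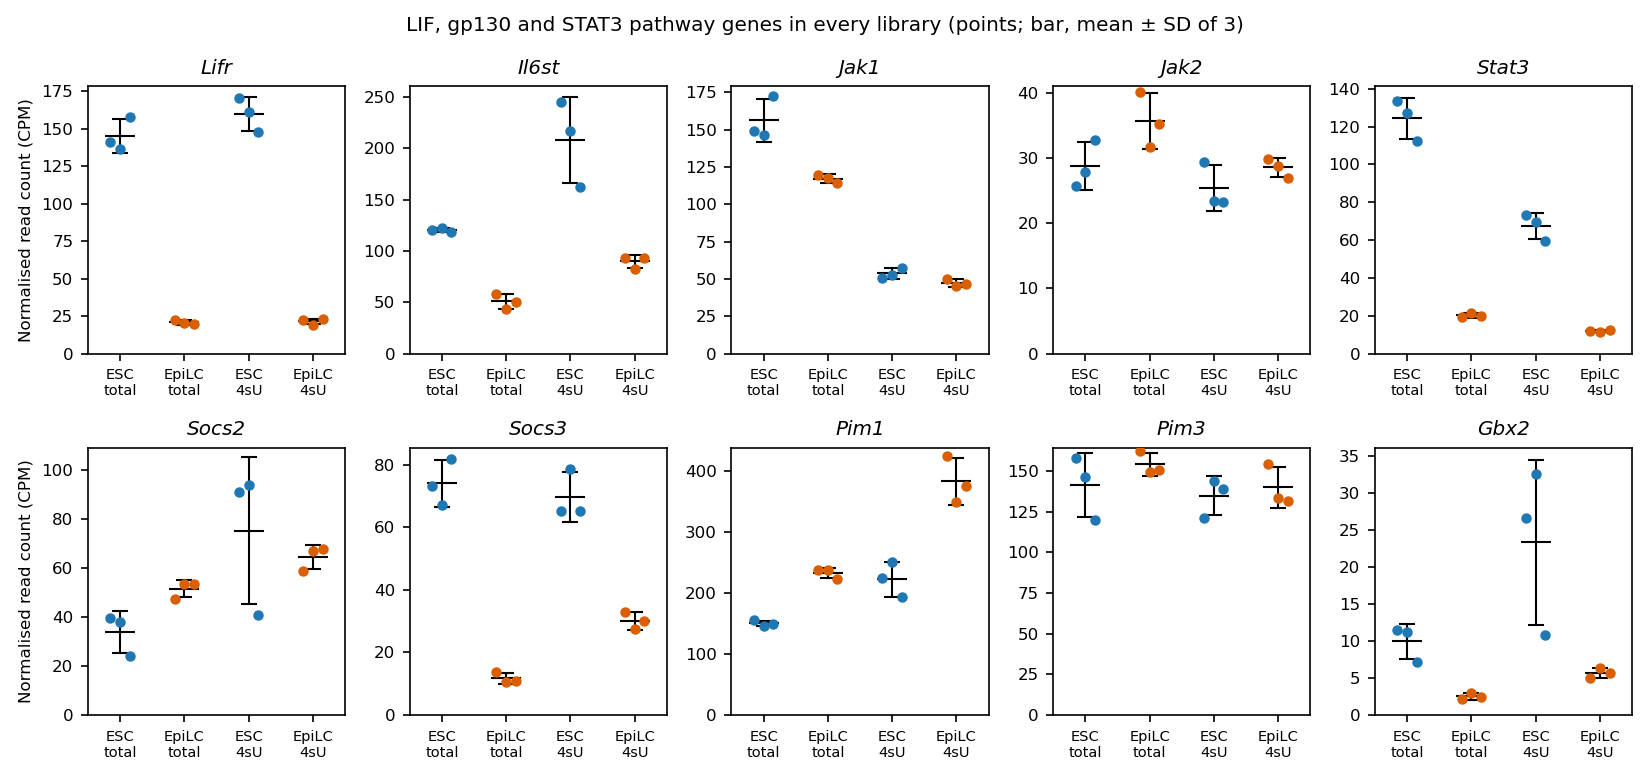
Normalised read count (CPM, vertical axis from 0) of each gene in ESC (blue) and EpiLC (orange) libraries of total and 4sU RNA. Points are libraries and bars are the mean ± SD of 3. The EpiLC points lie below all ESC points in both assays for Lifr, Il6st, Jak1, Stat3, Socs3 and Gbx2, and above them in both assays for Pim1.

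The receptor chains fell together with their nascent RNA. Lifr (ENSMUSG00000054263.11, mm10 chr15:7129559-7197489, plus strand) encodes the LIF-binding chain. Its total RNA was at 141, 137 and 158 CPM (read count scaled to a common library total and adjusted for library composition) in ESCs and at 22.4, 20.3 and 19.7 CPM in EpiLCs. No EpiLC library came near an ESC library. The log2 change was -2.80 ± 0.10 (SE, n = 3 libraries per group), a 6.95-fold fall with a limma-voom adjusted p of 1.8e-11. Nascent Lifr was at 170, 161 and 148 CPM in ESCs and at 22.1, 19.3 and 22.8 CPM in EpiLCs, a log2 change of -2.91 ± 0.13 (adjusted p = 5.6e-10).

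Il6st (ENSMUSG00000021756.12, chr13:112464070-112510086, plus strand) encodes gp130. Its total RNA stood at 121, 122 and 118 CPM in ESCs and at 58.2, 43.5 and 50.6 CPM in EpiLCs. The groups did not overlap, and the log2 change was -1.26 ± 0.13, or 2.39-fold (adjusted p = 1.03e-06). Nascent Il6st was at 245, 217 and 163 CPM in ESCs and at 93.5, 82.4 and 93.5 CPM in EpiLCs (log2 change -1.21 ± 0.14, adjusted p = 6.55e-06). Of the ESC 4sU libraries, replicate 3 had the lowest level, still above every EpiLC library.

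Both receptor mRNAs have long 3′ UTRs. The principal transcript of Lifr carries 6320 bases and that of Il6st 5641 bases, at percentiles 98.3 and 97.4 of 12155 protein-coding genes tested, whose median is 1066 bases. The study follows targets of an ESC-enriched microRNA family that shares the seed AAGUGC. To it belongs mmu-miR-294-3p (mm10 chr7:3220691-3220712, plus strand, sequence from RefSeq). Il6st was the 1 gene of the 10 whose 3′ UTR held AGCACTT, the heptamer that matches the seed of this microRNA. Of the background genes, 16.5% hold it. The microRNA is shown with its seed in capitals, and the Il6st site (bases 845 to 851 of the 3′ UTR) with the match in capitals, because the series concerns microRNA targets.
mmu-miR-294-3p: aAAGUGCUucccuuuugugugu
Il6st site: ggttgaggaAGCACTTtatccagaa
The match is a description of letters. Il6st had a log2 stability change of -0.05 (95% confidence interval -0.46 to 0.36), which did not pass the test. That comparison does not test the site. In the study the miR290-mCherry reporter is on in both cell types and the miR302-GFP reporter in EpiLCs only. The study counts miR-302 in the same target family, and levels of these microRNAs were not measured here.

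Neither kinase on the receptor was called in any comparison. Jak1 (ENSMUSG00000028530.14, chr4:101152367-101265282, minus strand) and Jak2 (ENSMUSG00000024789.12, chr19:29251828-29313080, plus strand) encode the tyrosine kinases that sit on gp130 and its partners. Jak1 total RNA was at 149, 146 and 173 CPM in ESCs and 120, 117 and 114 CPM in EpiLCs. Every EpiLC library was below every ESC library, yet the log2 change of -0.41 ± 0.08 (adjusted p = 0.000332) stayed under the fold limit of a call. Nascent Jak1 was at 50.7, 52.8 and 57.5 CPM in ESCs against 50.2, 45.4 and 46.6 CPM in EpiLCs, with a log2 difference of -0.17 (95% confidence interval -0.40 to 0.06, adjusted p = 0.197).

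Jak2 went the other way in total RNA, at 25.7, 27.9 and 32.8 CPM in ESCs and 40.2, 31.7 and 35.2 CPM in EpiLCs. These groups overlapped, and the log2 difference was 0.32 ± 0.11 (adjusted p = 0.0214), which is not a call. In nascent RNA Jak2 was at 29.4, 23.4 and 23.3 CPM in ESCs and 29.9, 28.8 and 27.0 CPM in EpiLCs, a log2 difference of 0.18 (95% confidence interval -0.17 to 0.53, adjusted p = 0.373).

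Stat3 (ENSMUSG00000004040.16, chr11:100885098-100939540, minus strand), the transcription factor that the kinases phosphorylate, fell in both assays. Its total RNA was at 134, 127 and 112 CPM in ESCs and at 19.3, 21.6 and 19.6 CPM in EpiLCs. The EpiLC libraries lay close to each other and far below the ESC libraries, with a log2 change of -2.62 ± 0.10, or 6.15-fold (adjusted p = 5.39e-11). Nascent Stat3 went from 73.0, 69.8 and 59.7 CPM to a range of 11.4 to 12.5 CPM, a log2 change of -2.49 ± 0.16 (adjusted p = 2.75e-08).

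Of the feedback inhibitors, Socs3 was called in all 3 comparisons and Socs2 in none. Socs3 encodes the inhibitor that binds gp130 and blocks its kinases, and the gene is a direct STAT3 target. Socs3 (ENSMUSG00000053113.3, chr11:117966079-117969186, minus strand) was at 73.1, 67.1 and 81.9 CPM in ESC total RNA and at 13.7, 10.6 and 10.8 CPM in EpiLC total RNA, a log2 change of -2.66 ± 0.13 or 6.32-fold (adjusted p = 6.36e-10). Its nascent RNA was at 65.2, 78.7 and 65.1 CPM in ESCs and at 33.0, 27.3 and 30.0 CPM in EpiLCs. The groups did not overlap in either assay, and nascent Socs3 fell 2.33-fold (log2 change -1.22 ± 0.14, adjusted p = 6.18e-06).

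Among the promoters RefSeq gives for 9 of the 10 genes, all but Socs2 (11 windows from 250 bases before to 50 bases after the start, GRCm38.p6), the Socs3 window was the 1 that held the STAT motif TTCNNNGAA, searched on both strands, of which the reverse complement reads the same. The motif is in 8.30% of the 32851 promoters of that table, so 1 of 9 genes is near the background. A stretch of 100 bases of it, chr11:117969467-117969566 on the minus strand, is shown with the match, TTCTTAGAA, in capitals, since Socs3 is the textbook STAT3 target in this set. The match starts 154 bases upstream of the RefSeq start. The whole window, chr11:117969317-117969616, lies upstream of the 5′ end of Socs3 in the deposited table, at 117969186 on the minus strand. The bases between the window and that end were not searched.
Socs3 promoter: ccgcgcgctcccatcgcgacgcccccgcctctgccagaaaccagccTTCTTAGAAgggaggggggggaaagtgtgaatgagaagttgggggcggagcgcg
No match in the other windows says only that these letters are not in them.

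Socs2 (ENSMUSG00000020027.18, chr10:95411490-95416857, minus strand) encodes a STAT-induced inhibitor best known from growth hormone signalling. In total RNA it was at 39.5, 38.0 and 24.2 CPM in ESCs and at 47.5, 53.4 and 53.5 CPM in EpiLCs. All EpiLC libraries were higher, but the log2 difference of 0.61 ± 0.23 (adjusted p = 0.0340) was not a call. Nascent Socs2 was at 91.2, 93.8 and 40.7 CPM in ESCs and at 58.9, 67.0 and 67.6 CPM in EpiLCs, so the ESC replicate 3 library lay below and the other ESC libraries above all EpiLC libraries. The nascent log2 difference was -0.17 (95% confidence interval -0.73 to 0.38, adjusted p = 0.601). With both ESC replicate 3 libraries left out, the log2 difference was 0.40 in total RNA (adjusted p = 0.000120) and -0.55 in nascent RNA (adjusted p = 3.71e-05), neither of them a call.

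The STAT3 targets did not move as a set. Gbx2 (ENSMUSG00000034486.8, chr1:89927956-89931179, minus strand), a homeobox factor of naive cells, was at 11.5, 11.2 and 7.18 CPM in ESC total RNA and at 2.12, 3.03 and 2.49 CPM in EpiLC total RNA. It is the member with the fewest reads, 73 to 222 per ESC total library and 19 to 32 per EpiLC total library. The log2 change was -1.97 ± 0.42, or 3.93-fold (adjusted p = 0.000840). Nascent Gbx2 was at 26.6, 32.6 and 10.8 CPM in ESCs and at 4.95, 6.36 and 5.64 CPM in EpiLCs (log2 change -1.97 ± 0.44, adjusted p = 0.00192). ESC replicate 3 was the lowest ESC library in both assays and still above all EpiLC libraries. Without both replicate 3 libraries of ESCs the log2 changes were -2.14 in total and -2.39 in nascent RNA, both still calls.

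Pim1 and Pim3 encode serine/threonine kinases that act downstream of STAT factors in survival and growth. Pim1 (ENSMUSG00000024014.7, chr17:29490812-29496111, plus strand) was at 155, 146 and 149 CPM in ESC total RNA and at 238, 237 and 222 CPM in EpiLC total RNA. It was higher in all EpiLC libraries, with a log2 difference of 0.63 ± 0.09 (adjusted p = 2.97e-05). In nascent RNA it went from 224, 250 and 194 CPM to 424, 348 and 376 CPM, a log2 difference of 0.78 ± 0.10 (adjusted p = 1.23e-05). Both differences passed on adjusted p and missed the fold limit, and both were opposite in sign to those of Stat3.

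Pim1 was also the 1 gene of the 10 whose 3′ UTR held the AU-rich nonamer TTATTTATT, an element known from short-lived mRNAs and present in 7.72% of the 12155 background genes. It is printed because its matches, 3 that overlap, form a single run at bases 952 to 968 of a 3′ UTR of 1365 bases, shown in capitals.
Pim1 element: atgtatTTATTTATTTATTTATTtggttg

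Pim3 (ENSMUSG00000035828.10, chr15:88862186-88865718, plus strand) stayed in the same range, at 158, 147 and 120 CPM in ESC and 162, 149 and 150 CPM in EpiLC total RNA. Its log2 difference was 0.13 (95% confidence interval -0.09 to 0.34, adjusted p = 0.296). Nascent Pim3 was at 121, 144 and 139 CPM in ESCs and 154, 133 and 132 CPM in EpiLCs, a log2 difference of 0.06 (95% confidence interval -0.19 to 0.30, adjusted p = 0.708). The groups overlapped in both assays.

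In nascent RNA the genes called were the 5 called in total RNA, all lower, where 13.5% of all genes tested were called lower and 11.9% higher. On adjusted p alone 5 were lower and 1 higher, against 28.8% and 23.7% of all genes. The median nascent log2 change was -0.69 over the 10 genes and -0.09 over all genes. EpiLC libraries lay below all ESC libraries for 6 of the 10 genes in each assay, against 35.1% of all genes in total RNA and 34.1% in nascent RNA. They lay above for 2 genes in total RNA (Socs2 and Pim1) and for 1 in nascent RNA (Pim1), against 33.5% and 26.6% of all genes.

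**Figure D2:**
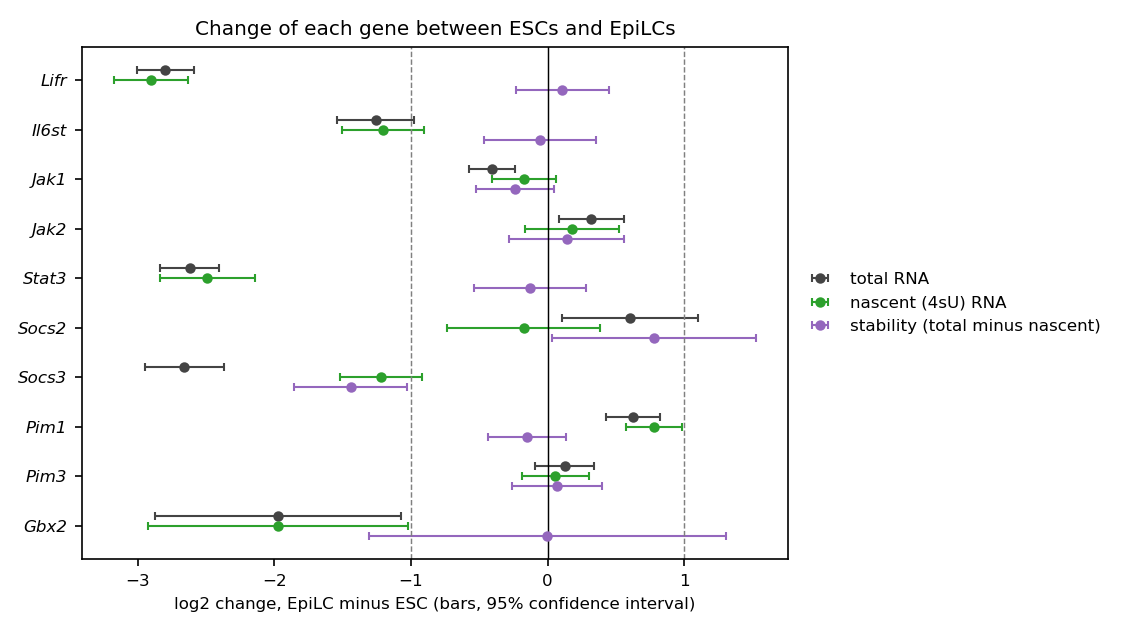
Log2 change, EpiLC minus ESC (horizontal axis), of each gene in total RNA, nascent RNA and stability, the total change minus the nascent change. Points are limma-voom estimates from 3 libraries per group, bars are 95% confidence intervals and dashed lines mark the fold limit of a call. The total and nascent points of Lifr, Il6st, Stat3 and Gbx2 lie together, and those of Socs3 lie apart at -2.66 and -1.22.

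The second comparison asked whether total RNA changed more or less than nascent RNA did, a difference called the stability change here. The study infers relative decay from total and nascent RNA by assuming that RNA levels stay constant within a cell state. Whether this held in ESCs or EpiLCs was not tested, so stability here means only the total-to-nascent difference. That difference was tested as the interaction of cell type and assay. Socs3 was the 1 gene called of the 10, lower in stability, against 0.305% of all genes called lower and 1.24% called higher. On adjusted p alone it was also the 1 gene, against 1.88% of all genes lower and 2.72% higher. With the replicate number as a block per culture, 0.611% of all genes were called lower and 2.97% higher, and Socs3 was at -1.43 (adjusted p = 0.000865). The stability log2 change of Socs3 was -1.44 ± 0.19, or 2.72-fold (95% confidence interval -1.86 to -1.03, limma-voom adjusted p = 0.00189). Over 20 alternative fits the call held in each, with adjusted p from 8.39e-11 to 0.0113. The other 9 genes were not called, and the median over the 10 was -0.03 against 0.11 over all genes.

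Socs2 had the next largest stability difference in size, 0.78 ± 0.35 (95% confidence interval 0.03 to 1.53, adjusted p = 0.200), which is not a call. It was 1.04 and called without ESC 4sU replicate 3 (adjusted p = 0.0241), and 0.95 with both ESC replicate 3 libraries left out (adjusted p = 3.33e-05), under the fold limit. With the replicate number as a block per culture it was 0.82 (adjusted p = 0.00465), again under the fold limit. For Lifr the stability difference was 0.11 (95% confidence interval -0.23 to 0.45) and for Stat3 -0.13 (-0.54 to 0.28). That of Gbx2 was -0.00 with a wide interval, -1.31 to 1.31. Jak1 (-0.23), Jak2 (0.14), Pim1 (-0.15) and Pim3 (0.07) had intervals that include 0.

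**Figure D3:**
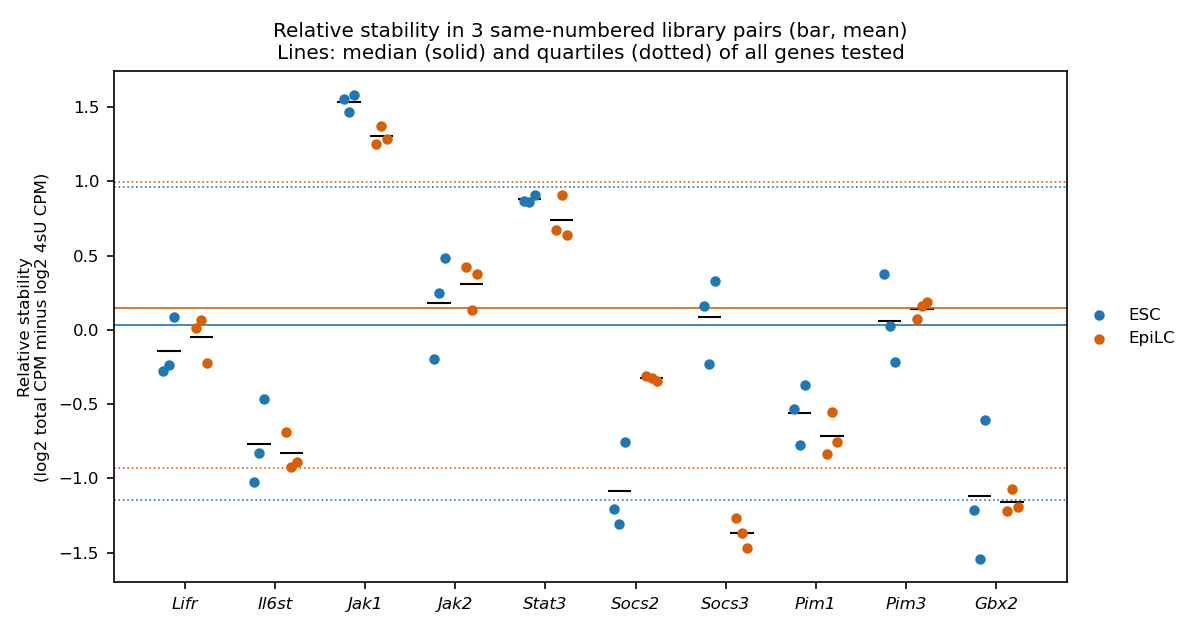
Relative stability (log2 total CPM minus log2 4sU CPM, vertical axis) of each gene in ESCs (blue) and EpiLCs (orange). Points are pairs of total and 4sU libraries with the same number, bars are means of 3, and horizontal lines are the median (solid) and quartiles (dotted) of all genes tested. Socs3 is near the ESC median in ESCs and below the lower quartile in EpiLCs.

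Relative stability within a cell type, the log2 ratio of total to 4sU CPM, placed the genes at very different positions. It was computed per pair of libraries of the same number. Each extract was split between the assays, although no source says that the number marks a shared extract. Socs3 was at 0.16, -0.23 and 0.33 in ESCs and at -1.26, -1.36 and -1.47 in EpiLCs. It went from percentile 51.4 of all genes tested to percentile 19.0, or from 43.8 to 7.86 among protein-coding genes alone. Among protein-coding genes the percentile was lower for each of the 10 genes in both cell types. The pairs of the cell types did not overlap. This was so for 2 of the 10 genes with EpiLCs lower (Socs3 and Jak1) and for 1 with EpiLCs higher (Socs2), against 12.1% and 21.1% of all genes.

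Jak1 had the highest relative stability of the 10 genes in both cell types, 1.54 ± 0.06 in ESCs and 1.30 ± 0.06 in EpiLCs (SD, n = 3 pairs), at percentiles 87.8 and 83.2 of all genes tested and 86.3 and 81.0 of protein-coding genes. Stat3 followed at 0.88 ± 0.03 and 0.74 ± 0.15. Jak2 (0.18 ± 0.35 and 0.31 ± 0.15), Pim3 (0.06 ± 0.30 and 0.14 ± 0.06) and Lifr (-0.14 ± 0.20 and -0.05 ± 0.15) lay near the medians of all genes, 0.03 in ESCs and 0.15 in EpiLCs.

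Lower on the scale, Pim1 was at -0.56 ± 0.20 in ESCs and -0.72 ± 0.15 in EpiLCs, and Il6st at -0.77 ± 0.28 and -0.83 ± 0.13. Socs2 was at -1.09 ± 0.30 in ESCs, close to the lower quartile of -1.14, and at -0.33 ± 0.02 in EpiLCs. Gbx2 was at -1.12 ± 0.48 and -1.16 ± 0.08. Without the ESC replicate 3 pair the ESC mean was -1.26 for Socs2 and -1.38 for Gbx2. The percentiles of Gbx2 were 25.3 in ESCs and 21.6 in EpiLCs among all genes and 14.1 and 10.5 among protein-coding genes alone.

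The AU-rich pentamer ATTTA was counted in the 3′ UTRs of the 10 genes and set against their length, as pentamers per kb. Pim3 (5.19, percentile 94.0), Gbx2 (4.52, percentile 91.5), Pim1 (3.66, percentile 86.5) and Jak1 (3.55, percentile 85.5) had the densest 3′ UTRs. Socs3 followed at 2.71 (percentile 76.4), and the median of the background genes was 1.29. The 4 pentamers of Socs3 are shown in capitals because it is the gene with the stability call. The second line holds a pair of them at bases 1398 to 1408 of 1474, the first line the one at 676 to 680 and the last line the one at 1434 to 1438.
Socs3 site 1: ggcagtagcATTTAgaagggaga
Socs3 site 2: tgcacatatATTTAtATTTAtactcagaa
Socs3 site 3: atttcagtaATTTAtaataaaag

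Levels of the genes were compared with each other per exonic length, as TPM (counts divided by exonic length and scaled to a common total) in total RNA. In ESCs Pim3 (93.0 ± 10.7 TPM, SD, n = 3) and Pim1 (90.9 ± 2.31) were highest, and their libraries overlapped. Jak1 (50.9 ± 5.92) and Socs3 (46.4 ± 5.57) came next and overlapped as well, followed by Stat3 (31.8 ± 2.01). Lifr (22.4 ± 2.23), Socs2 (19.97 ± 4.58) and Il6st (17.5 ± 0.318) made a run in which each gene overlapped the next. Jak2 (9.17 ± 1.40) and Gbx2 (7.41 ± 1.64) were lowest and overlapped.

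In EpiLCs the order was Pim1 (163 ± 3.28 TPM), Pim3 (118 ± 2.95), Jak1 (44.3 ± 0.733), Socs2 (35.5 ± 3.67) and Jak2 (13.2 ± 1.29), each above the next in all libraries. Il6st (8.58 ± 1.08) and Socs3 (8.51 ± 0.958) overlapped. Stat3 (6.02 ± 0.467), Lifr (3.73 ± 0.117) and Gbx2 (2.22 ± 0.437) closed the order without overlap. The kinases Jak1 and Jak2 thus ranked above both receptor chains and Stat3 in EpiLCs, whereas in ESCs Jak2 ranked below them.

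The rest of the pathway was described from a list of 43 further genes in 5 roles, which was drawn up with earlier results of these data known. Of these, 38 passed the filter on low counts. In total RNA 6 were called higher and 14 lower, with a median log2 change of -0.34, so 20 of 38 were called against 27.6% of all genes. Osm was among the lower calls here and in nascent RNA, but it passed the filter through ESC libraries alone and had to differ. Over the genes with at least 1 library at 3 CPM in each cell type, 19 of 37 were called against 21.4% of all such genes, and 5 of the 10 LIF route genes. Such a gene can still lie under 3 CPM in a whole group, as Bcl3 did in EpiLC total RNA (mean 1.43 CPM). Of the 10 LIF route genes, Gbx2 had a mean under 3 CPM in EpiLC total RNA (2.55 CPM). Other called genes with a group mean under 3 CPM include Klf4 in EpiLC total RNA (2.19 CPM) and Myc in ESC total RNA (2.39 CPM). In nascent RNA 6 were called higher and 12 lower, or 18 of 38 against 25.5%. On adjusted p alone 33 passed in total RNA (63.5% of all genes) and 30 in nascent RNA (52.5%). In stability 0 were called by limma-voom, 1 had an adjusted p under 0.05 (4.6% of all genes), and 0 were called by edgeR and by DESeq2. The plot of these genes by role shows the calls.

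**Figure D4:**
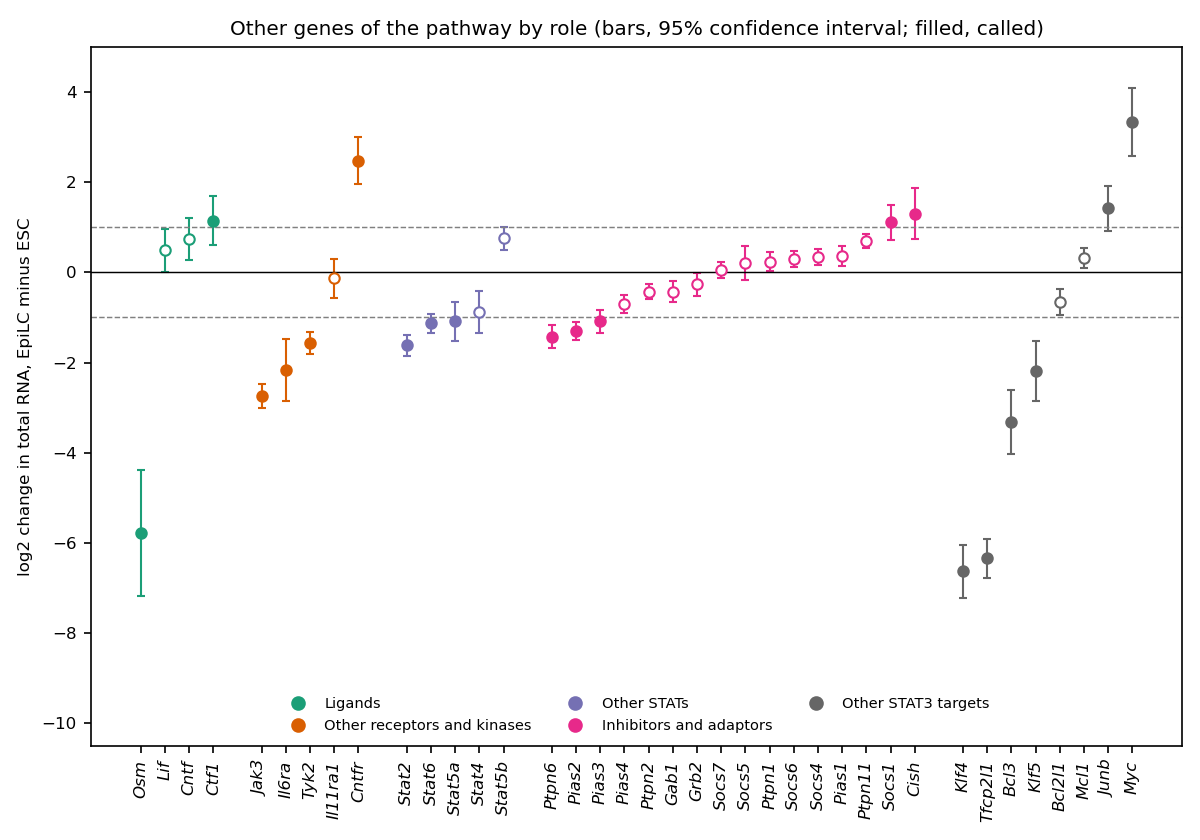
Log2 change in total RNA, EpiLC minus ESC (vertical axis), of the 38 further pathway genes that passed the filter, grouped and coloured by role. Points are limma-voom estimates, bars 95% confidence intervals, filled points are calls and dashed lines mark the fold limit. Other receptors and kinases and other STATs lie mostly below 0, with Cntfr at 2.48 and Stat5b at 0.75 above it.

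Of 8 ligands of the family, 4 passed the filter. Ctf1 (cardiotrophin 1) was called higher, with a log2 change of 1.15 ± 0.26. It was at 0.89 without ESC total replicate 3 and at 0.88 without both ESC replicate 3 libraries, and not a call in either case. Osm (oncostatin M) had 37 to 49 reads per ESC total library and 0 in all EpiLC total libraries, which makes it at least 25.7-fold lower against a floor of 3 reads over the EpiLC group. It passed the filter only through ESC libraries, so it had to differ. Il6, Il11, Clcf1 and Ctf2 were under the filter, and Il6 had at most 1 read in any total library. In the fit with no filter, Il11 (2.48, adjusted p = 0.000895) and Clcf1 (1.79, adjusted p = 0.00198) were called higher in total RNA. Il6 and Ctf2 were not called in that fit. Il11 had at most 12 reads and Clcf1 at most 22 in an EpiLC total library.

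Of the other receptors and kinases, Il6ra, the chain that binds interleukin 6, fell by 2.16 on the log2 scale, and the kinases Jak3 and Tyk2 fell by 2.74 and 1.57. Cntfr, the chain that binds ciliary neurotrophic factor, was called higher at 2.48. Osmr was under the filter and Il11ra1 was not called.

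Of the 5 other STAT genes described here, 3 were called lower in total RNA and 0 higher, against 11.2% and 16.3% of all genes tested. The 3 were Stat2 (log2 change -1.62), Stat5a (-1.09) and Stat6 (-1.13). The Stat5a call was lost without ESC total replicate 2 (-0.94), without EpiLC total replicate 2 (-0.94) and with library totals alone (-0.998). Of the 16 inhibitors and adaptors 5 were called, near the 27.6% of all genes. The SOCS-family genes Socs1 (1.11) and Cish (1.31) were called higher, and 3 genes lower, Pias2 (-1.30), Pias3 (-1.08) and the phosphatase gene Ptpn6 (-1.43).

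Of the 8 other STAT3 targets, 4 were called lower and 2 higher in total RNA, against 11.2% and 16.3% of all genes tested. The pluripotency factors Klf4 (-6.63), Tfcp2l1 (-6.34) and Klf5 (-2.19) fell, as did Bcl3 (-3.32), a nuclear partner of NF-κB. Myc (3.33) and Junb (1.42) rose. Klf4 went from 215 to 2.19 CPM and Tfcp2l1 from 1207 to 14.7 CPM in total RNA, while Myc went from 2.39 to 25.1 CPM.

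Genes of other cell types were also measured. Of 7 fibroblast markers 3 passed the filter. Col1a2 and Dcn were higher in EpiLCs, but both passed the filter through EpiLC libraries alone and had to differ, and Thy1 was not called. The sum over the list went from 3.88 to 4.73 CPM in ESC total libraries to 14.6 to 18.9 CPM in EpiLC total libraries, with Lum at 0 reads in the latter. Of 5 primitive endoderm markers, Gata4 was called higher, but its ESC and EpiLC total libraries overlapped (mean ± SD 2.87 ± 1.79 and 5.48 ± 0.53 CPM). Gata6 and Sox7 were under the filter. Dab2 was higher (mean 0.65 CPM in ESC and 11.1 CPM in EpiLC total RNA) and Sox17 lower, each having passed the filter through 1 cell type alone. The sum went from 3.30 to 9.44 CPM in ESC total libraries to 16.4 to 18.4 CPM in EpiLC total libraries. Of 4 mesoderm markers, Eomes was not called, and T and Mixl1 were higher after passing the filter through EpiLC libraries alone, with sums of 10.4 to 25.3 CPM in ESCs and 19.8 to 30.0 CPM in EpiLCs. Their part in the values of the LIF pathway genes was not tested.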

How the data were processed

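Nascent (4sU) and total RNA were measured in 3 libraries each of ESCs and EpiLCs. The authors trimmed reads with Cutadapt 1.14, aligned them to mm10 with STAR 2.5.3a keeping unique positions, and deposited raw counts per GENCODE M14 gene from featureCounts 1.5.3 on the reverse strand. Spike-in entries held 0 reads, so every library is scaled to its own composition and no absolute level is given. Unique alignment makes genes with near-identical copies uncertain.

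A gene entered the fit if 3 or more libraries reached 3 CPM (14731 genes). The model was fitted with limma-voom and TMM scaling over the 4 groups (limma 3.58.1, edgeR 4.0.16, R 4.3.3), with Benjamini-Hochberg adjustment over all of them. Calls need an adjusted p under 0.05 and an absolute log2 change over 1. Adjusted p-values are those of limma-voom where no tool is given. CPM is TMM-adjusted and TPM uses exonic length. The bound for Osm uses library totals. The fit was tested on simulated data. Intervals cover these libraries only, and reads carry no molecular identifiers.

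Transcript features came from GENCODE M21 (principal transcript, 51274 of the gene IDs matched), promoters and the microRNA from RefSeq. The 10 genes and all lists were chosen with earlier results of these data known. All 10 genes are named. Of the 43 others, those called in total RNA or stability, with 0 reads or under the filter are named, and Il11ra1, Stat5b and a few values beyond this were added after their values were seen. A further listed gene is not reported here. Alternatives were other scaling, no filter, DESeq2 1.42.0, the quasi-likelihood test of edgeR, replicate blocks, each library left out in turn and both ESC replicate 3 libraries left out.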

Additional observations from a re-analysis of the deposited data

Results flagged for a closer look

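The total-to-nascent difference changed between ESCs and EpiLCs for 2 of the 48 pathway genes tested, by the interaction term of limma-voom at an adjusted p under 0.05. That is 4.17% of them, near the 4.6% of all genes tested. Socs3 had a log2 stability change of -1.44 (adjusted p = 0.00189), with all 3 EpiLC pairs below all 3 ESC pairs. Stat2 had a log2 stability change of -0.77 (adjusted p = 0.0466), which is under the fold limit of a call. Over its alternatives the adjusted p of Stat2 ran from 0.00380 to 0.130, and it was called in 0 of 20.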

How the results depend on the processing

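The 5 lower calls in total RNA and the 5 in nascent RNA, and the Socs3 stability call, held in each of the 19 (stability 20) alternative fits. On adjusted p alone the counts were 9 members and 33 further pathway genes in total RNA, 30 further genes in nascent RNA and 1 in stability. A replicate block per culture also gave 1 further gene in stability, Stat5a (1.27, adjusted p = 0.0450), and raised the stability calls over all genes from 182 higher and 45 lower to 438 and 90. Of the further genes called in total RNA, calls were lost for Stat5a in 3 of 19 fits, for Ctf1 in 2 and for Pias3 in 2 (-0.99 with library totals alone and -0.99 without EpiLC total replicate 1). Counting only genes with a library at the minimum in each cell type, an alternative added after seeing the data, gave 19 further genes in total RNA. Leaving out 1 library gave 1 to 2 members called in stability, the 2 being Socs3 and Socs2 without ESC 4sU replicate 3 (Socs2 0.51 to 1.04). The same-numbered 4sU and total libraries deviated together with correlations of 0.16 to 0.41 in ESCs and 0.02 to 0.07 in EpiLCs, and 9 of 12 libraries correlated best with their own number, a hint that the numbers mark the split extracts. Because the EpiLC pairs were under 0.1 and no source ties the number to the extract, the block was kept as an alternative. With the replicate block the counts of members called were 5, 5 and 1.

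Signs turned only for differences that were not called. Stability of Il6st was 0.012 with library totals alone, 0.11 without both ESC replicate 3 libraries and -0.16 to 0.052 without 1 library. Stability of Jak2 was -0.016 to 0.22 without 1 library. Stability of Pim3 was -0.015 with median-of-ratios scaling, -0.049 with no expression filter, -0.019 with DESeq2, -0.045 without both ESC replicate 3 libraries and -0.049 to 0.16 without 1 library. Stability of Gbx2 was 0.068 with library totals alone, 0.097 with edgeR, 0.00025 with DESeq2, 0.12 with either replicate block, 0.25 without both ESC replicate 3 libraries and -0.39 to 0.31 without 1 library. Nascent changes were -0.46 to 0.072 for Socs2 and -0.043 to 0.16 for Pim3 without 1 library. The setting with library totals alone leaves out the TMM factors. This lowered relative stability by the same amount in every gene, -0.23 in ESCs and -0.16 in EpiLCs, which passed the SD for 14 of 20 values. The cause of the turned signs was not tested. The 4sU libraries, the shallower ones, limit the precision of nascent and stability values at a given CPM.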
